A study of Danio rerio with 11 samples.

Results

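The genes described here bear the names of protein subunits of the mitochondrial ribosome (mitoribosome) and were followed in full-grown ovarian follicles of adult zebrafish. They were taken by symbol: a gene named mrpl or mrps followed by a number, with at least 10 counts in at least 3 libraries. The deposited count table lists 35889 genes, of which 74 had such a symbol, and all 74 met the count minimum. Their smallest count in any library was 26 (mrpl58 in control 1), so no gene lay near the minimum. By symbol alone, 46 were counted to the large subunit (mrpl) and 28 to the small subunit (mrps). A symbol does not always name the subunit that holds the protein, and the place of single proteins was not checked. All 74 were among the 19421 genes that entered the tests.

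The mitoribosome translates the few messenger RNAs transcribed from mitochondrial DNA, all of which encode membrane-embedded core subunits of the oxidative phosphorylation complexes. Its ribosomal RNA is mitochondrial, but its proteins are encoded in the nucleus, made in the cytosol and imported. Some of them descend from bacterial ribosomal proteins and others were added in the mitochondrial lineage. The oocyte holds a very large store of mitochondria, which it passes to the embryo, and steroid-producing follicle cells use mitochondria for the first step of steroid synthesis. Gonadotropins act on these follicle cells: luteinising hormone, whose beta subunit is encoded by lhb, acts through the receptor encoded by lhcgr, and fshb and fshr encode the beta subunit and the receptor of follicle-stimulating hormone.

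Poly(A)-selected RNA of hand-picked, size-filtered follicles was sequenced in 11 libraries from fish at 180 days after fertilisation. The 4 lhb/lhcgr mutant libraries carried fshb+/-, lhb-/-, fshr+/- and lhcgr-/-. The 4 fshb/lhcgr mutant libraries carried fshb-/-, lhb+/-, fshr+/- and lhcgr-/-. The 3 control libraries were heterozygous at all of these loci (fshb+/-, lhb+/-, fshr+/- and lhcgr+/-). Thus fshr was heterozygous in every library, both mutants lacked lhcgr, and the controls were heterozygous, not wild type. The nature of the mutant alleles is not given in the sources used here. The labels do not say that the libraries of a group came from separate fish, so what the p-values weigh is the spread of these samples, which may be technical. Both mutants were compared with the same 3 control libraries.

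Totals ran from 14179252 to 25484718 counts per library, and the mitoribosomal genes together held 0.355 to 0.428% of them in lhb/lhcgr mutants, 0.299 to 0.326% in fshb/lhcgr mutants and 0.238 to 0.290% in controls. Messenger RNA of lhcgr remained in all libraries, with 1899 to 5051 counts in lhb/lhcgr mutants, 1645 to 2458 in fshb/lhcgr mutants and 1645 to 4735 in controls, so its level does not check the labels. The lhb gene had 10 to 160 counts in lhb/lhcgr mutants, 25 to 97 in fshb/lhcgr mutants and 294 to 537 in controls, and fshb had 0 to 11, 0 to 5 and 0 to 2 counts in the same groups. The fshb/lhcgr mutants, labelled lhb+/- like the controls, thus had lhb counts within the range of the lhb-/- libraries and below every control. Since a messenger RNA level is not a reading of the genotype, this leaves that label unchecked, and its cause was not tested. Neither hormone gene therefore tells the mutants apart here, and which hormone gene a mutant lacks rests on its label. Oocyte markers were detected in every library, and their summed level overlapped between groups (4613 to 6287 CPM in lhb/lhcgr mutants, 5662 to 6272 in fshb/lhcgr mutants and 4131 to 6054 in controls). CPM are counts per 1000000 counts, with library sizes scaled by TMM, a correction for differences in RNA composition. The summed granulosa markers also overlapped, at 431 to 730 CPM in lhb/lhcgr mutants, 487 to 841 in fshb/lhcgr mutants and 563 to 1290 in controls. This list includes lhcgr, the gene mutated in both mutants, which averaged 148 CPM in lhb/lhcgr mutants, 146 in fshb/lhcgr mutants and 197 in controls. In every group inha and lhcgr had the highest means of the list, so the sum mostly reads these genes. Single granulosa markers lay further apart than this sum: fshr averaged 46.4 CPM in lhb/lhcgr mutants, 20.1 in fshb/lhcgr mutants and 12.4 in controls and was called higher in lhb/lhcgr mutants than in controls by edgeR, whereas inha averaged 291, 436 and 543 CPM and cyp19a1a 1.22, 5.05 and 4.37 CPM, neither of them called.

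Markers of other cell types were summed in the same way. The 8 theca and stroma markers summed to 320 to 345 CPM in lhb/lhcgr mutants, 535 to 754 in fshb/lhcgr mutants and 387 to 699 in controls. One of them, lum, was at 0 in all lhb/lhcgr mutants and in 2 of the 3 controls. The 6 endothelial markers, none of which was at 0 in any library, summed to 66.7 to 75.0 CPM in lhb/lhcgr mutants, 96.9 to 190 in fshb/lhcgr mutants and 118 to 209 in controls. Both sums in lhb/lhcgr mutants thus lay under every other library. Against controls edgeR called 3 of 7 tested theca and stroma markers and 2 of 6 endothelial markers lower there, beside 4.45% of all genes. In each list 1 marker went the other way, uncalled. On average cyp17a1 had 126 CPM in lhb/lhcgr mutants and 115 in controls, and tie1 had 12.9 and 9.14 CPM. Erythrocyte markers summed to 64.1 to 139 CPM in lhb/lhcgr mutants, 97.2 to 179 in fshb/lhcgr mutants and 28.5 to 84.0 in controls, and the 8 macrophage and neutrophil markers to 22.5 to 102, 28.9 to 51.7 and 13.1 to 42.8 CPM. Of the erythrocyte markers, hbaa2 was at 0 in lhb/lhcgr mutants 1 and 2 and in control 1, and lyz, a neutrophil marker, was at 0 in fshb/lhcgr mutants 1 and 4. No oocyte or granulosa marker was at 0. The part of cell composition in the values below was not tested.

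Per unit of transcript length, mitoribosomal genes were well expressed in the follicle. The authors' FPKM (counts per kilobase of the gene and per 1000000 counts of the library) allow levels to be compared between genes. The median over the 74 genes was 41.1 FPKM in lhb/lhcgr mutants, 35.4 in fshb/lhcgr mutants and 28.3 in controls, against medians over all tested genes of 4.78, 4.70 and 5.06 FPKM. In controls the median mitoribosomal gene stood at the 83.6th percentile of all tested genes. Transcript levels of the 74 genes were unequal: the mean level in controls spanned 29.2-fold between the lowest and the highest gene, although the upper quartile was only 2.20-fold above the lower. The highest gene, mrps36, is counted by its symbol only, and the lowest, mrps25, has a long gene model, as described below. The medians of the large-subunit and small-subunit genes in controls were 28.2 and 28.3 FPKM.

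The highest level in controls was that of mrps36, a small protein that in mammals is a component of the alpha-ketoglutarate dehydrogenase complex. It is counted among the mitoribosomal genes here by its symbol only. Its level was 120, 109, 92.0 and 116 FPKM in lhb/lhcgr mutants, 94.6, 82.6, 117 and 112 FPKM in fshb/lhcgr mutants and 96.7, 76.9 and 96.0 in controls. These groups overlap. Next in controls came mrps18b with 76.7 ± 9.87 FPKM (SD, n = 3) and mrpl17 with 75.8 ± 10.5, which differ by less than their spread. They were followed by mrpl12, whose product in mammals also binds the mitochondrial RNA polymerase, with 70.0 ± 4.33, by mrpl1 with 68.4 ± 22.5 and by mrpl18 with 63.1 ± 2.33 FPKM. At the other end stood mrpl58, which in mammals encodes a peptidyl-tRNA hydrolase built into the large subunit, with 6.71 ± 5.09 FPKM, mrpl22 with 5.55 ± 1.16 and mrps25 with 3.08 ± 0.265. The last pair had 31.7 and 19.4 CPM in controls, and their low FPKM goes with long gene models, in length classes 9 and 10 of the 10 described below.

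Summed over all 74 genes, the level in lhb/lhcgr mutants was 4008, 3674, 3357 and 3613 CPM. In fshb/lhcgr mutants the sums were 3224, 3012, 3320 and 3193 CPM, and in controls they were 2466, 2576 and 2841 CPM. The lhb/lhcgr mutants were highest, the fshb/lhcgr mutants lay between, and no libraries of different groups overlapped. The group means were 3663 ± 268 CPM (SD, n = 4), 3187 ± 129 CPM (SD, n = 4) and 2628 ± 193 CPM (SD, n = 3), so the sum was 1.39 times the control mean in lhb/lhcgr mutants and 1.21 times in fshb/lhcgr mutants. In bulk libraries such as these, a different share of a cell type and a different amount of RNA per cell cannot be told apart.

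The sum was not carried by a few abundant genes. For each gene, the deviation of a library's log2 CPM from the gene's mean over the 11 libraries was taken. The median of these deviations over the 74 genes was 0.23 ± 0.11 in lhb/lhcgr mutants, 0.01 ± 0.04 in fshb/lhcgr mutants and -0.26 ± 0.11 in controls (SD over libraries). Between 53 and 68 of the 74 genes lay above their own mean in single lhb/lhcgr mutant libraries, between 25 and 46 in fshb/lhcgr mutants and between 7 and 11 in controls. The order lhb/lhcgr mutants above fshb/lhcgr mutants above controls held for the group means of 61 of the 74 genes, and 8 more were highest in fshb/lhcgr mutants and lowest in controls. The large-subunit sum over the small-subunit sum was 1.48 to 1.52 in lhb/lhcgr mutants, 1.37 to 1.59 in fshb/lhcgr mutants and 1.47 to 1.63 in controls, so the groups overlap in this ratio.

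**Figure D1:**
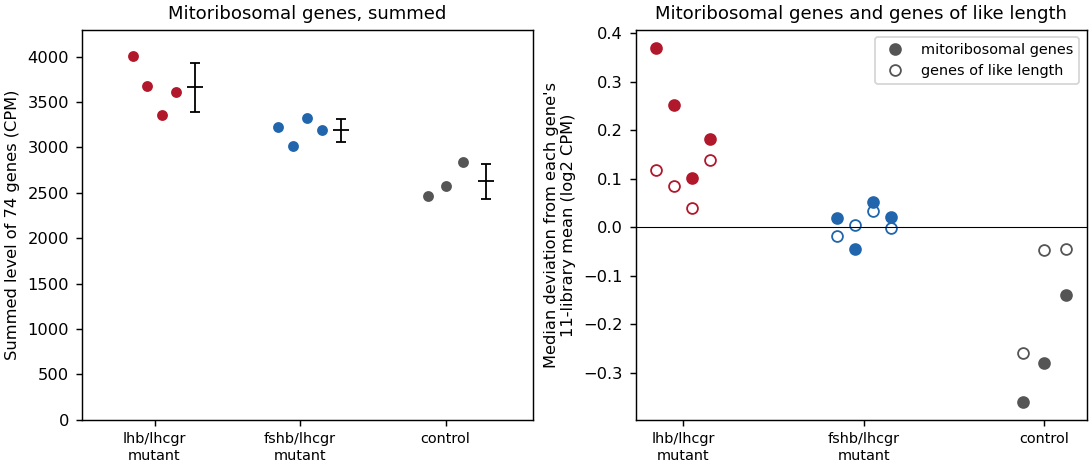
Left, summed level of the 74 mitoribosomal genes (CPM) in each library, with the mean and SD of each group; right, the median deviation from each gene's mean over 11 libraries (log2 CPM) for the mitoribosomal genes (filled) and for genes of like length (open). The sums run from 3357 to 4008 CPM in lhb/lhcgr mutants, from 3012 to 3320 in fshb/lhcgr mutants and from 2466 to 2841 in controls, with no overlap.

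The first comparison set lhb/lhcgr mutants, which lack the hormone and its receptor, against controls. Of the 74 mitoribosomal genes, 9 were called higher (12.2%) and 0 lower at a Benjamini-Hochberg adjusted p under 0.05, taken over all 19421 genes, by the quasi-likelihood test of edgeR. Over all genes tested, 2.89% were called higher and 4.45% lower. The 9 genes had folds between 1.59 and 1.99. A further 23 genes had an adjusted p between 0.05 and 0.1. At an unadjusted p under 0.05 there were 45 genes, all with a positive log2 difference, where 11.4% of all genes tested were higher and 13.5% lower at that p. DESeq2 called 29 of the mitoribosomal genes higher and 0 lower, where it called 6.17% of all genes higher and 7.88% lower. By limma-voom 10 were higher and 0 lower, against 2.89% and 4.1% of all genes.

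The direction was shared far more widely than the calls. The log2 difference was positive in 72 of the 74 genes, with a median of 0.46 (quartiles 0.35 and 0.64), beside a median of 0.01 over all genes tested. In 45 genes (60.8%) every lhb/lhcgr mutant library lay above every control library, against 11.2% of all genes tested. In 0 genes did every lhb/lhcgr mutant library lie below, against 11.6% of all genes.

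**Figure D2:**
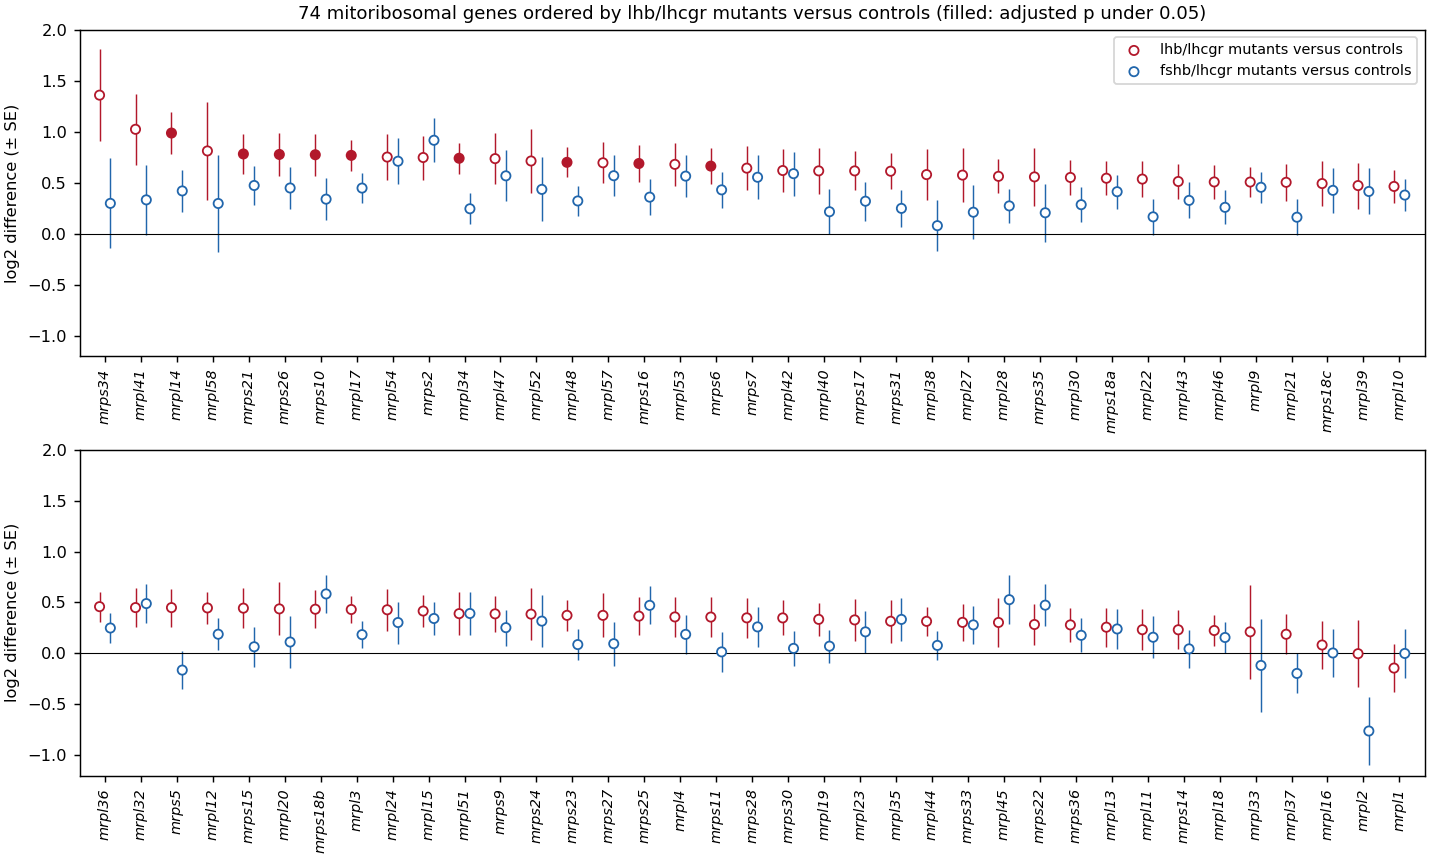
Log2 difference (± SE) of each of the 74 mitoribosomal genes in lhb/lhcgr mutants against controls (red) and in fshb/lhcgr mutants against the same controls (blue), ordered by the first; filled points have an adjusted p under 0.05. The red points are positive for 72 genes and filled for 9, and no blue point is filled.

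Among the large-subunit genes, the call with the smallest p was that of mrpl17, the counterpart of a bacterial protein that lies by the exit of the nascent peptide tunnel. It had 131, 125, 105 and 123 CPM in lhb/lhcgr mutants, 86.7, 95.5, 102 and 103 CPM in fshb/lhcgr mutants and 66.0, 64.0 and 82.6 CPM in controls. The 3 groups are fully separated. Against controls the log2 difference of lhb/lhcgr mutants was 0.77 (SE 0.15, adjusted p = 0.0129, edgeR). It was the 1 gene of the 9 whose call held whichever single library was left out, with an adjusted p of at most 0.0462.

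The counterpart of another bacterial protein, mrpl34, stood at 61.8, 54.0, 48.2 and 55.3 CPM in lhb/lhcgr mutants, 37.7, 38.2, 38.5 and 41.0 CPM in fshb/lhcgr mutants and 32.3, 30.5 and 35.4 in controls. Here the lhb/lhcgr mutants stand well apart, and the fshb/lhcgr mutants lie just above the controls. Against controls, the lhb/lhcgr mutants had a log2 difference of 0.74 (SE 0.15, adjusted p = 0.0152, edgeR). Without lhb/lhcgr mutant 4 its adjusted p was 0.0531.

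A subunit with no bacterial counterpart, mrpl48, which in mammals sits in the central protuberance of the large subunit, had 78.6, 74.6, 73.3 and 86.8 CPM in lhb/lhcgr mutants. The fshb/lhcgr mutants had 66.3, 53.7, 63.5 and 57.4 CPM and the controls 45.7, 46.3 and 52.3 CPM. Again the 3 groups do not overlap, though the lowest fshb/lhcgr mutant comes close to the highest control. For lhb/lhcgr mutants against controls the log2 difference was 0.70 (SE 0.15, adjusted p = 0.0155, edgeR).

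The largest fold among the called genes was that of mrpl14, whose bacterial counterpart forms part of the contact between the subunits. Its values were 39.3, 32.5, 33.8 and 37.9 CPM in lhb/lhcgr mutants, 24.0, 24.0, 20.9 and 27.8 CPM in fshb/lhcgr mutants and 15.7, 14.8 and 23.6 in controls. The lhb/lhcgr mutants are above all other libraries, while fshb/lhcgr mutants and control 3 overlap. The fold of lhb/lhcgr mutants over controls was 1.99 (log2 difference 0.99, SE 0.21, adjusted p = 0.0164, edgeR).

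Of the small-subunit genes, 5 were called. Counterparts of bacterial proteins are encoded by mrps21, mrps16, mrps10 and mrps6, and mrps26 encodes a subunit found only in mitochondria. Defects of MRPS16 in people cause a combined deficiency of the respiratory chain complexes.

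The first of these, mrps21, had 52.5, 49.3, 35.4 and 46.2 CPM in lhb/lhcgr mutants, 32.6, 34.1, 41.1 and 40.2 CPM in fshb/lhcgr mutants and 25.6, 22.1 and 32.0 in controls. Both mutants lie above the controls, and they overlap with each other. In lhb/lhcgr mutants against controls this gave a log2 difference of 0.78 (SE 0.20, adjusted p = 0.0312, edgeR).

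Levels of mrps16 were 44.0, 44.0, 35.7 and 44.2 CPM in lhb/lhcgr mutants, 35.1, 33.1, 35.7 and 29.7 CPM in fshb/lhcgr mutants and 23.2, 22.8 and 31.8 in controls. In lhb/lhcgr mutants 3 libraries nearly coincide and the third replicate is lower, though still above the controls. The log2 difference of lhb/lhcgr mutants from controls was 0.69 (SE 0.18, adjusted p = 0.0368, edgeR).

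For mrps10 the values were 39.8, 35.1, 38.9 and 39.6 CPM in lhb/lhcgr mutants, 32.8, 25.8, 26.1 and 28.7 CPM in fshb/lhcgr mutants and 17.6, 19.7 and 29.8 in controls. Control 3 reaches into the range of the fshb/lhcgr mutants but not into that of the lhb/lhcgr mutants. Set against controls, the log2 difference of lhb/lhcgr mutants was 0.78 (SE 0.20, adjusted p = 0.0373, edgeR).

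The mitochondria-specific mrps26 stood at 78.1, 61.6, 58.0 and 73.0 CPM in lhb/lhcgr mutants, 51.9, 43.0, 53.9 and 66.5 CPM in fshb/lhcgr mutants and 28.4, 42.9 and 46.8 in controls. Control 1 is the lowest library by a wide margin. Against controls, the lhb/lhcgr mutants had a log2 difference of 0.78 (SE 0.21, adjusted p = 0.0385, edgeR).

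Finally, mrps6 had 59.5, 55.1, 49.1 and 55.4 CPM in lhb/lhcgr mutants, 43.3, 44.6, 43.1 and 55.3 CPM in fshb/lhcgr mutants and 26.6, 40.2 and 36.7 in controls. Both mutants lie above all controls, and fshb/lhcgr mutant 4 reaches the level of the lhb/lhcgr mutants. In lhb/lhcgr mutants against controls this gave a log2 difference of 0.67 (SE 0.18, adjusted p = 0.0396, edgeR). The calls of these 5 small-subunit genes were each lost in 5 to 7 of the 11 fits that left out 1 library, as were those of mrpl34 in 1 and of mrpl48 and mrpl14 in 2. Over those fits the number of mitoribosomal genes called higher ran from 1 (without lhb/lhcgr mutant 4) to 10. It was 2 without control 1, and 4 without lhb/lhcgr mutant 1 or 2. Higher calls over all genes tested fell too, from 562 with all libraries to 90 without lhb/lhcgr mutant 4 and 119 without control 1. They were 284 and 412 without lhb/lhcgr mutants 1 and 2.

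**Figure D3:**
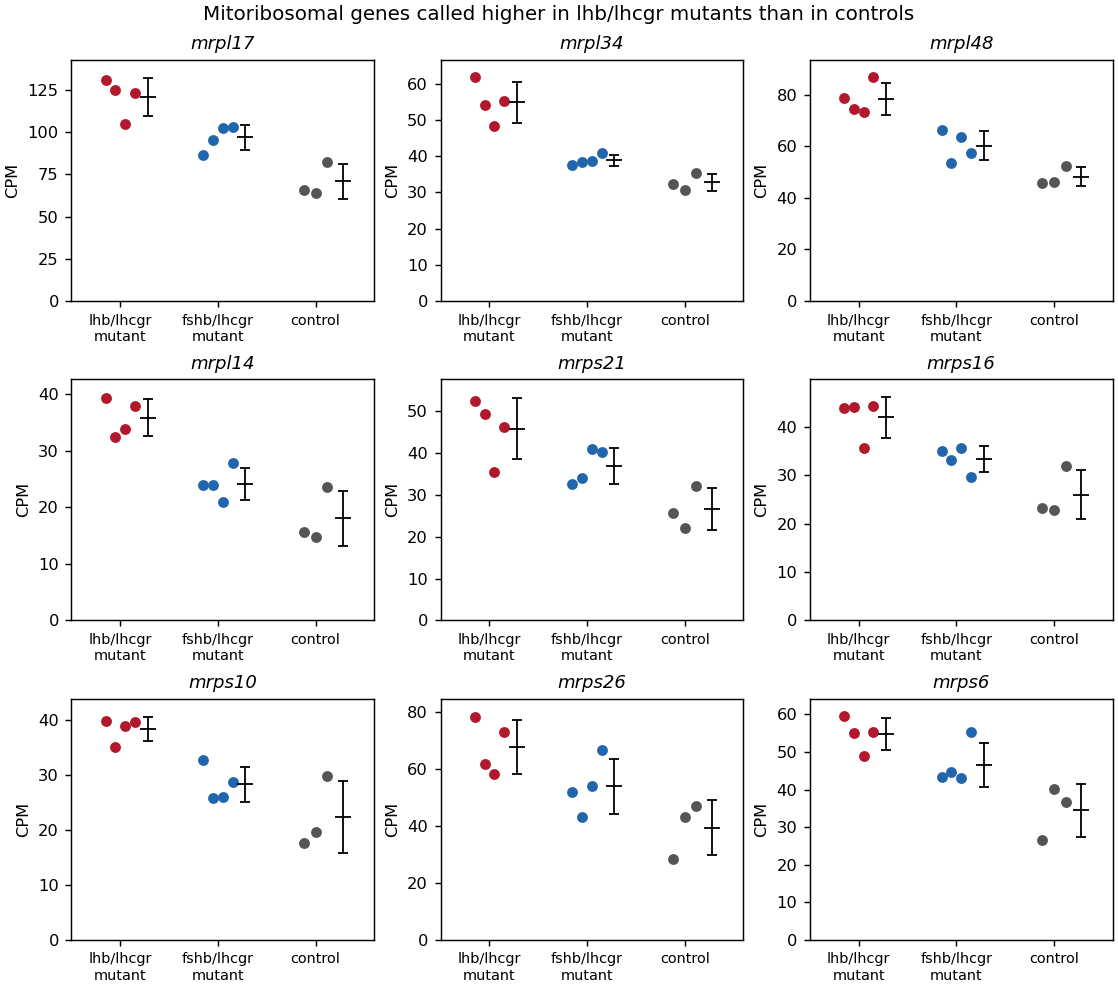
Level (CPM) of the 9 mitoribosomal genes called higher in lhb/lhcgr mutants than in controls, one panel a gene, with each library as a point and the mean and SD of each group. In all panels the lhb/lhcgr mutants lie above the controls, and for mrpl17 the fshb/lhcgr mutants (86.7 to 103 CPM) lie between both.

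The largest log2 difference of all belonged to a gene that was not called, mrps34, which encodes a mitochondria-specific subunit whose loss in people causes Leigh syndrome. It had 85.2, 59.7, 77.4 and 80.6 CPM in lhb/lhcgr mutants, 22.3, 47.0, 19.8 and 55.8 CPM in fshb/lhcgr mutants and 10.6, 38.3 and 39.4 in controls. All lhb/lhcgr mutants lie above all other libraries, but the other groups spread widely: control 1 has 159 counts where the other controls have 540 and 625. The log2 difference of lhb/lhcgr mutants from controls was 1.36 (SE 0.45, adjusted p = 0.0867, edgeR). With DESeq2 the adjusted p was 0.0114, and with limma-voom it was 0.0415.

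The next was mrpl41, a mitochondria-specific large-subunit gene, with 26.6, 27.1, 21.5 and 26.0 CPM in lhb/lhcgr mutants, 11.1, 14.8, 13.5 and 23.2 CPM in fshb/lhcgr mutants and 5.69, 17.5 and 14.1 in controls. Control 1 was again lowest, and the lhb/lhcgr mutants did not overlap with the controls (log2 difference 1.03, SE 0.35, adjusted p = 0.0830, edgeR). The peptidyl-tRNA hydrolase gene mrpl58, the least abundant of the family by CPM, overlapped between groups, with 8.87, 10.3, 5.53 and 6.80 CPM in lhb/lhcgr mutants, 4.30, 4.88, 4.09 and 8.73 CPM in fshb/lhcgr mutants and 1.74, 8.30 and 3.40 in controls.

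A handful of genes had no positive difference or only a small one. The negative differences were those of mrpl1 and mrpl2, both counterparts of bacterial proteins, the first forming the mobile stalk by which spent transfer RNA leaves and the second lying next to the catalytic centre. Values of mrpl1 were 80.5, 69.8, 53.3 and 58.4 CPM in lhb/lhcgr mutants, 82.8, 68.0, 86.7 and 52.0 CPM in fshb/lhcgr mutants and 95.4, 72.7 and 49.0 in controls, and they overlapped fully. Set against controls, the log2 difference of lhb/lhcgr mutants was -0.14 (SE 0.24, adjusted p = 0.764, edgeR). For mrpl2 it was -0.003 (SE 0.33), with controls as far apart as 17.5 and 45.8 CPM. The differences of mrpl16 (0.08, SE 0.24) and of the mitochondria-specific mrpl37 (0.19, SE 0.20) were also within their errors.

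Large- and small-subunit genes gave like values. Against controls, the median log2 difference in lhb/lhcgr mutants was 0.47 over the 46 large-subunit genes, of which 4 were called, and 0.45 over the 28 small-subunit genes, of which 5 were called. All of these calls were higher, and over all genes tested 2.89% were called higher and 4.45% lower. All 28 small-subunit genes had a positive difference, as had 44 of the 46 large-subunit genes. When genes were sorted by whether bacterial ribosomes have a counterpart, a split made after the values were seen, 46 had one, with a median of 0.45 and 7 calls, and 28 had none, with a median of 0.54 and 2 calls. The 3 genes that descend from the gene of 1 bacterial protein, mrps18a, mrps18b and mrps18c, were also picked after their values were seen. Their log2 differences in lhb/lhcgr mutants were 0.55, 0.43 and 0.49, and none was called.

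Mitoribosomal transcripts are short, and in these libraries the differences between groups varied with gene length. A relative length was obtained for each gene from the ratio of its count to its FPKM, and the tested genes were split into 10 classes of equal size, class 1 being the shortest. Classes 1, 2 and 3 held 28, 23 and 9 mitoribosomal genes, and the other 14 lay in classes 4 to 10. For lhb/lhcgr mutants against controls, the median log2 difference of the other genes was 0.23 in class 1, 0.27 in class 2, 0.04 in class 5 and -0.28 in class 10. Per doubling of length, log2 CPM of the tested genes relative to their means changed by -0.08, -0.06, 0.003 and -0.05 in lhb/lhcgr mutants, by -0.02 to 0.01 in fshb/lhcgr mutants and by 0.12, 0.06 and 0.03 in controls. Every lhb/lhcgr mutant thus had a smaller slope than every control, and control 1 had the steepest.

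Set against genes of like length, most mitoribosomal genes had the larger difference in lhb/lhcgr mutants. In each gene, the median log2 difference of the other tested genes in its length class was subtracted, and the result is called its distance. The median distance was 0.30 (quartiles 0.14 and 0.48), and 70 of the 74 genes lay above the median of their class. The 14 genes in the longer classes 4 to 10 were all among these: mrpl22 in class 9 had a log2 difference of 0.54 and mrps25 in class 10 one of 0.37. With genes matched on length and on 4 classes of mean level, the median distance was 0.23, and 59 of the 74 genes lay above their class.

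Control 1 stood apart among the genes of like length. For single libraries, the median deviation of these genes of like length themselves (log2 CPM) took the values 0.12, 0.09, 0.04 and 0.14 in lhb/lhcgr mutants. It took -0.02, 0.004, 0.03 and -0.002 in fshb/lhcgr mutants and -0.26, -0.05 and -0.05 in controls. In these genes controls 2 and 3 lay just under the fshb/lhcgr mutants. The median deviation of the mitoribosomal genes was 0.37, 0.25, 0.10 and 0.18 in lhb/lhcgr mutants. It was 0.02, -0.05, 0.05 and 0.02 in fshb/lhcgr mutants and -0.36, -0.28 and -0.14 in controls. Without control 1 the median distance from genes of like length came to 0.26 for lhb/lhcgr mutants and to 0.17 for fshb/lhcgr mutants, each against the other controls. Without control 2 these distances were 0.24 and 0.15, and without control 3 they were 0.34 and 0.27.

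The share of calls was closer to that of comparable genes. Weighted to the classes of the mitoribosomal genes, 4.43% of other genes of like length were called higher, and 11.1% of genes of like length and level, which is close to the 12.2% of mitoribosomal genes. Libraries of the lhb/lhcgr mutants lay entirely above the controls in 16.5% of genes of like length and in 31.7% of genes of like length and level, against 60.8% of mitoribosomal genes. When the model carried a smooth correction for length in each library, 0 mitoribosomal genes were called, 23 had an unadjusted p under 0.05 and the median log2 difference was 0.31. Calls over all 19421 genes fell too, to 285 higher and 491 lower from 562 and 864 without the correction. The median distance of the mitoribosomal genes from genes of like length was 0.30 with it. In that fit mrpl14 had an adjusted p of 0.0528 and mrpl17 one of 0.0789 (edgeR).

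**Figure D4:**
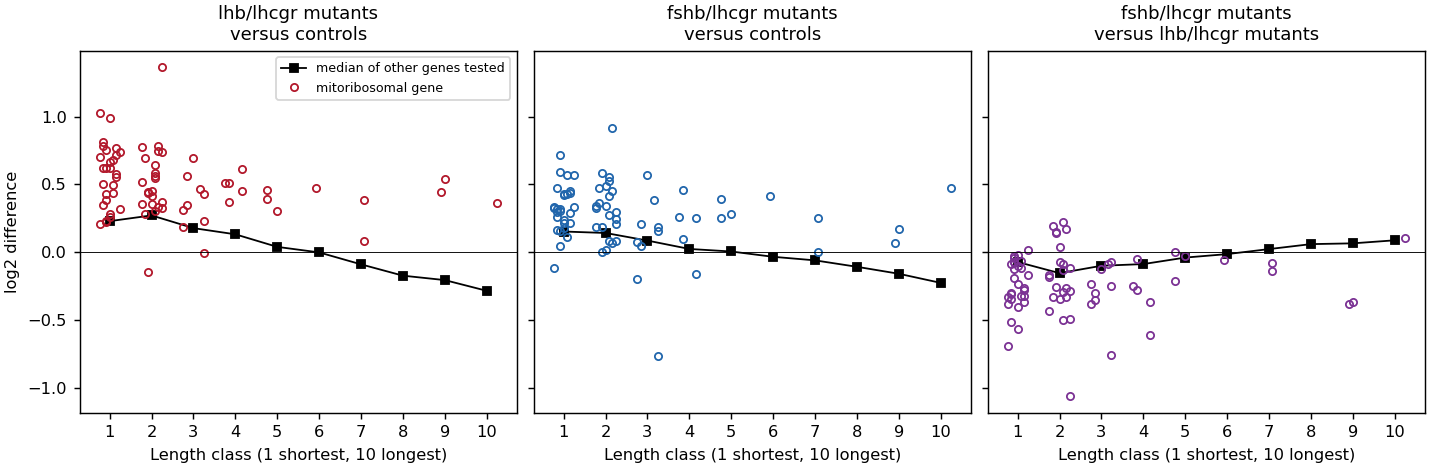
Log2 difference of each mitoribosomal gene (circles) by relative length class, from 1 (shortest) to 10 (longest), beside the median of the other genes tested in each class (squares), for the 3 comparisons. In lhb/lhcgr mutants against controls the squares are at 0.23 in class 1, 0.27 in class 2 and -0.28 in class 10, and 70 of the 74 circles lie above the square of their class.

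The second comparison set fshb/lhcgr mutants, which lack the receptor lhcgr and the other hormone subunit fshb, against the same controls. Of the mitoribosomal genes 0 were called higher and 0 lower by edgeR, where 0.0154% of all genes tested were called higher and 0.0566% lower, so that calls were rare for any gene. The smallest adjusted p was 0.166. At an unadjusted p under 0.05 there were 21 genes with a positive and 1 with a negative difference, against 5.69% and 6.11% of all genes tested. DESeq2 called 1 gene higher, mrps2, and 0 lower, against 0.638% and 0.793% of all genes. A p that misses the threshold does not show that the groups were equal.

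Without calls, the values of the fshb/lhcgr mutants still lay mostly above the controls. The log2 difference was positive in 69 of the 74 genes, with a median of 0.28 against -0.03 over all genes tested. All fshb/lhcgr mutant libraries lay above all controls in 19 genes (25.7%), against 5.26% of all genes, 7.85% of genes of like length and 15.2% of genes of like length and level. They lay below in 0 genes, against 5.16% of all genes. The median distance from genes of like length was 0.18, and 61 genes lay above their class. Matched on level as well, it was 0.14, with 52 genes above. The distance from genes of like length varied with the control left out. It was 0.17 without control 1, 0.15 without control 2 and 0.27 without control 3, the highest control.

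The gene with the largest difference was mrps2, which encodes the counterpart of a bacterial small-subunit protein. It had 50.1, 40.9, 45.0 and 57.3 CPM in fshb/lhcgr mutants, 52.6, 35.1, 39.9 and 44.2 CPM in lhb/lhcgr mutants and 20.4, 22.6 and 33.6 CPM in controls. Both mutants lie above the controls and overlap with each other. Against controls the log2 difference was 0.92 (SE 0.22, adjusted p = 0.166, edgeR) in fshb/lhcgr mutants and 0.75 (SE 0.22, adjusted p = 0.0502, edgeR) in lhb/lhcgr mutants.

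The mitochondria-specific mrpl54 had 24.2, 28.5, 21.3 and 23.8 CPM in fshb/lhcgr mutants and 11.2, 18.1 and 15.4 in controls, with no overlap (log2 difference 0.71, SE 0.23). Next in size were mrpl42 (0.59, SE 0.22), with 30.2, 35.5, 47.0 and 32.9 CPM in fshb/lhcgr mutants and 29.2, 17.2 and 25.9 in controls, and mrps18b (0.58, SE 0.19), whose groups overlap. Further genes had no overlap between fshb/lhcgr mutants and controls. Levels of mrpl9, the counterpart of a bacterial protein at the base of the mobile stalk, were 72.7, 72.7, 83.7 and 68.8 CPM in fshb/lhcgr mutants and 58.4, 50.9 and 53.3 in controls (log2 difference 0.46, SE 0.15). Those of mrpl57 were 33.6, 35.3, 41.4 and 34.2 CPM in fshb/lhcgr mutants and 26.0, 18.3 and 28.6 in controls (0.57, SE 0.20).

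The 1 negative difference with an unadjusted p under 0.05 was that of mrpl2. It had 13.6, 19.0, 14.4 and 21.6 CPM in fshb/lhcgr mutants and 24.0, 17.5 and 45.8 in controls. Control 3 is far above the other controls, and the groups overlap (log2 difference -0.76, SE 0.33, adjusted p = 0.393, edgeR). The other negative differences were smaller than their errors or close to them: mrpl37 had -0.20 (SE 0.20), mrps5 -0.16 (SE 0.19), mrpl33 -0.12 (SE 0.46) and mrpl1 -0.001 (SE 0.24).

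The third comparison set fshb/lhcgr mutants against lhb/lhcgr mutants, which by their labels share the loss of lhcgr and differ in the hormone gene that is lost. By edgeR 0 mitoribosomal genes were called higher and 0 lower, against 1.45% and 0.917% of all genes tested. At an unadjusted p under 0.05 there were 12 genes, all with a negative difference, where 9.19% of all genes were higher and 8.85% lower at that p (18% in either direction). DESeq2 called 0 genes higher and 2 lower, mrps5 and mrpl34, which is close to the share of all genes that it called lower (3.23%, with 4% called higher). Levels leaned towards the lhb/lhcgr mutants: 65 of the 74 log2 differences were negative, with a median of -0.23 against -0.02 over all genes. In 14 genes (18.9%) every fshb/lhcgr mutant lay below every lhb/lhcgr mutant, against 6.38% of all genes, 7.73% of genes of like length and 12.6% of genes of like length and level. They lay above in 0 genes, against 6.54% of all genes. The median distance from genes of like length was -0.13, and -0.12 with level matched as well.

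The smallest p belonged to mrps5, the counterpart of a bacterial protein at the entry of the messenger RNA channel. It had 22.2, 19.0, 16.3 and 22.2 CPM in fshb/lhcgr mutants and 33.5, 29.7, 30.8 and 28.0 CPM in lhb/lhcgr mutants, beside 19.9, 23.2 and 24.0 CPM in controls. Here the fshb/lhcgr mutants overlap with the controls and reach below them, and the lhb/lhcgr mutants are above both. The log2 difference between the mutants was -0.61 (SE 0.17, adjusted p = 0.0803, edgeR).

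The other genes with the smallest p among those without overlap were mrpl34, mrpl14, mrpl48 and mrps34, whose values are given above. Their log2 differences between fshb/lhcgr and lhb/lhcgr mutants were -0.50 (SE 0.14), -0.57 (SE 0.19), -0.38 (SE 0.13) and -1.06 (SE 0.41). On the positive side the largest values were small: mrpl45, which in mammals anchors the ribosome at the inner membrane, had 0.22 (SE 0.22), mrps22 had 0.19 (SE 0.19), mrps2 0.17 (SE 0.20) and mrps18b 0.15 (SE 0.17). These 4 genes overlapped between the mutants.

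The wider machinery of mitochondrial translation was read from lists written from textbook knowledge. The genes of 5 further mitoribosomal subunits, which carry other symbols, had positive differences in all 5 in lhb/lhcgr mutants against controls, with a median of 0.62. Of these 1 was called higher and 0 lower, where 2.89% of all genes tested were called higher and 4.45% lower. The call was aurkaip1, which also bears the name of an aurora kinase partner. It had 142, 112, 130 and 124 CPM in lhb/lhcgr mutants, 110, 92.9, 112 and 106 CPM in fshb/lhcgr mutants and 68.8, 90.8 and 89.1 in controls. All 3 groups are apart (log2 difference of lhb/lhcgr mutants from controls 0.62, SE 0.15, adjusted p = 0.0299, edgeR). Its call was lost in 4 of the 11 fits that left out 1 library, with an adjusted p of up to 0.104. The differences of chchd1 (0.63, SE 0.19), gadd45gip1 (0.66, SE 0.25), dap3 (0.37, SE 0.17) and ptcd3 (0.24, SE 0.16) did not pass the test.

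The factors that build or serve the mitoribosome were read next. Of 24 tested assembly genes, 1 was called higher and 0 lower in lhb/lhcgr mutants against controls, with a median log2 difference of 0.32, where 2.89% of all genes tested were called higher and 4.45% lower. The call was nsun4, a methyltransferase of the mitochondrial ribosomal RNA, with 38.9, 36.1, 29.4 and 32.7 CPM in lhb/lhcgr mutants, 31.7, 34.9, 33.1 and 28.0 CPM in fshb/lhcgr mutants and 18.7, 21.6 and 25.5 in controls. Both mutants lie above the controls. The adjusted p for lhb/lhcgr mutants was 0.0497 (edgeR), and the call was lost whichever library was left out.

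Of 16 translation factors, 1 gene was called higher and 1 lower, against 2.89% and 4.45% of all genes, with a median of 0.28. The first was mtfmt, which formylates the initiator transfer RNA, with 78.6, 67.9, 67.5 and 65.1 CPM in lhb/lhcgr mutants, 56.8, 57.4, 59.9 and 58.8 CPM in fshb/lhcgr mutants and 50.5, 43.8 and 48.1 in controls (log2 difference of lhb/lhcgr mutants from controls 0.56, SE 0.14, adjusted p = 0.0322, edgeR). The groups are separated in the same order as for mrpl17, but the call of mtfmt was lost in 7 of the 11 fits that left out 1 library (adjusted p up to 0.0795). The second was one of 2 gene IDs with the symbol taco1, a translational activator in mammals. It had 0, 0, 0.0371 and 0 CPM in lhb/lhcgr mutants, 4.44, 1.85, 3.78 and 5.63 CPM in fshb/lhcgr mutants and 0, 0 and 5.11 in controls, so its call rests on control 3.

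The elongation factor genes tufm, tsfm and gfm1 had log2 differences of 0.45 (SE 0.17), 0.20 (SE 0.20) and 0.05 (SE 0.24) in lhb/lhcgr mutants against controls. The initiation factor genes mtif2 and mtif3 had 0.16 (SE 0.21) and 0.51 (SE 0.30), the recycling factor gene mrrf had -0.03 (SE 0.23) and oxa1l, which inserts the products into the inner membrane, had 0.30 (SE 0.19). None passed the test. The messenger RNA partners lrpprc and slirp had -0.11 (SE 0.21) and 0.31 (SE 0.27), also short of it. Of the 16 mitochondrial transfer RNA synthetase genes and the 14 genes of mitochondrial transcription and RNA processing, 0 were called in either direction by edgeR, with medians of 0.12 and 0.22, and 2 and 4 had an unadjusted p under 0.05, as had 24.9% of all genes tested. In the transcription list, tfam, the packaging factor of mitochondrial DNA, had 0.37 (SE 0.18) and the polymerase gene polrmt -0.11 (SE 0.20).

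Among regulators and general markers of mitochondria 0 genes were called by edgeR, with 3 of 13 biogenesis regulators (all negative) and 2 of 24 genes of mass and import (both positive) at an unadjusted p under 0.05. Over all genes tested 11.4% were higher and 13.5% lower at that p, and 2.89% were called higher and 4.45% lower. For the regulators the median log2 difference in lhb/lhcgr mutants against controls was -0.32. The transcription factor gene nrf1 stood at 95.6, 90.7, 89.4 and 91.1 CPM in lhb/lhcgr mutants, 90.2, 97.2, 79.6 and 96.8 CPM in fshb/lhcgr mutants and 88.2, 89.3 and 99.9 in controls, with overlapping groups. Those of gabpa and of ppargc1a, which encode another such factor and a co-activator, overlapped too, with log2 differences of -0.12 (SE 0.31) and 2.89 (SE 1.41), the second from levels of at most 1.57 CPM. For the 24 genes of mitochondrial mass and protein import the median was 0.03, beside 0.01 over all genes tested and 0.46 over the mitoribosomal genes.

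Of 83 tested genes with symbols of cytosolic ribosomal proteins, 24 were called higher and 0 lower in lhb/lhcgr mutants against controls (2.89% and 4.45% of all genes). These genes were taken by symbol, and whether each protein is part of the ribosome was not checked. The cytosolic genes had a median difference of 0.56 (log2) and a median distance from genes of like length of 0.39. Among them rpl22 had 182, 189, 202 and 195 CPM in lhb/lhcgr mutants, 146, 149, 179 and 141 CPM in fshb/lhcgr mutants and 94.0, 130 and 117 in controls. As with mrpl17, the groups do not overlap (log2 difference of lhb/lhcgr mutants from controls 0.76, SE 0.15, adjusted p = 0.0144, edgeR). The calls of rpl7l1 (0.87, SE 0.18) and rps14 (0.71, SE 0.16) were of like size. Of these, rpl22 and rpl7l1 lost the call without lhb/lhcgr mutant 4 and in no other fit that left out 1 library, and rps14 lost it in 3 such fits. Between the mutants, fshb/lhcgr against lhb/lhcgr, the cytosolic list had a median of -0.38, beside -0.23 for the mitoribosomal genes. By edgeR 0 were called and 45 had an unadjusted p under 0.05, all with a negative difference, against the 8.85% of all genes given above.

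The nuclear-encoded partners of the products of the mitoribosome gave calls in both directions. Of 88 nuclear genes of oxidative phosphorylation, 6 were called higher and 2 lower in lhb/lhcgr mutants against controls. Over all genes tested 2.89% were called higher and 4.45% lower, so the lower calls were not in excess of that share. The 88 genes had a median difference of 0.26 (log2) and a median distance from genes of like length of 0.05. Complex I subunit genes ndufb9 (0.76, SE 0.16, adjusted p = 0.0160, edgeR) and ndufb7 (0.77, SE 0.18, adjusted p = 0.0242, edgeR) were higher, as was atp5meb of the ATP synthase (0.66, SE 0.16, adjusted p = 0.0283, edgeR). The complex IV subunit gene cox6a1 was lower, with 115, 117, 121 and 131 CPM in lhb/lhcgr mutants, 153, 138, 143 and 173 CPM in fshb/lhcgr mutants and 147, 244 and 225 in controls. The groups of lhb/lhcgr mutants and controls do not overlap (log2 difference -0.76, SE 0.17, adjusted p = 0.0219, edgeR). These 4 calls were lost in 2 (ndufb9), 4 (ndufb7), 3 (atp5meb) and 4 (cox6a1) of the 11 fits that left out 1 library.

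The 13 protein genes of mitochondrial DNA, which are the messages that the mitoribosome translates, had negative differences in all 13 in lhb/lhcgr mutants against controls. Of these 0 were called higher and 6 lower, against 2.89% and 4.45% of all genes tested, with a median log2 difference of -0.73. Every lhb/lhcgr mutant library lay below every control in 7 of the 13, against 11.6% of all genes, and 6 overlapped. Their summed level overlapped as well, at 49498 to 73555 CPM in lhb/lhcgr mutants and 63246 to 132383 in controls. Levels of mt-nd1, a complex I subunit, were 760 to 1347 CPM in the 4 lhb/lhcgr mutants, 2067 to 4221 in the 4 fshb/lhcgr mutants and 1899, 3443 and 2719 in controls. The lhb/lhcgr mutants are below all other libraries, and the fshb/lhcgr mutants spread over the controls. Against controls, the lhb/lhcgr mutants had a log2 difference of -1.27 (SE 0.27, adjusted p = 0.0161, edgeR). For mt-atp8, mt-atp6 and mt-nd6 it was -1.66 (SE 0.28), -1.12 (SE 0.24) and -0.92 (SE 0.25), all called. The call of mt-atp8 held whichever library was left out, those of mt-nd1 and mt-atp6 were lost without lhb/lhcgr mutant 4, and that of mt-nd6 was lost in 7 of 11 such fits. In fshb/lhcgr mutants against lhb/lhcgr mutants 6 of the 13 were called higher and 0 lower, with a median of 1.07. Over all genes tested 1.45% were called higher and 0.917% lower there.

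In fshb/lhcgr mutants against controls, 0 genes of these lists were called by edgeR. At an unadjusted p under 0.05 there were 11 of the 88 oxidative phosphorylation genes, 10 of the 83 cytosolic ribosomal genes and 0 to 5 genes of each other list. Over all genes tested 11.8% were under that p, 5.69% higher and 6.11% lower. Of the oxidative phosphorylation genes 10 were higher and 1 lower, and the 10 cytosolic genes were all higher. The cytosolic list had 74 positive and 9 negative differences, with a median of 0.20, beside 0.28 for the mitoribosomal genes. Between the mutants there were few other calls, where 1.45% of all genes tested were called higher and 0.917% lower. The assembly factor gene mettl17 was lower in fshb/lhcgr mutants, with 11.4, 10.7, 10.1 and 16.0 CPM, than in lhb/lhcgr mutants, with 20.4, 23.4, 21.7 and 23.9 CPM, and controls had 15.7, 19.7 and 15.2 CPM (log2 difference -0.89, SE 0.21, adjusted p = 0.0411, edgeR). The mutants do not overlap, and the call was lost in 8 of the 11 fits that left out 1 library. One of 2 gene IDs with the symbol ybey, an endonuclease of ribosome assembly, was called higher, although the groups overlap: it had 13.9, 3.69, 15.7 and 0.248 CPM in fshb/lhcgr mutants and 0.121, 0.306, 0.260 and 0 CPM in lhb/lhcgr mutants. The complex IV gene cox6b1 was higher in fshb/lhcgr mutants, with 13.0, 11.2, 14.5 and 12.1 CPM, than in lhb/lhcgr mutants, with 2.60, 6.79, 6.13 and 5.84 CPM (log2 difference 1.25, SE 0.29, adjusted p = 0.0414, edgeR), a call lost in 7 of the 11 fits that left out 1 library. The taco1 ID given above was also called higher in fshb/lhcgr mutants, and lost that call in 8 of those fits.

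**Figure D5:**
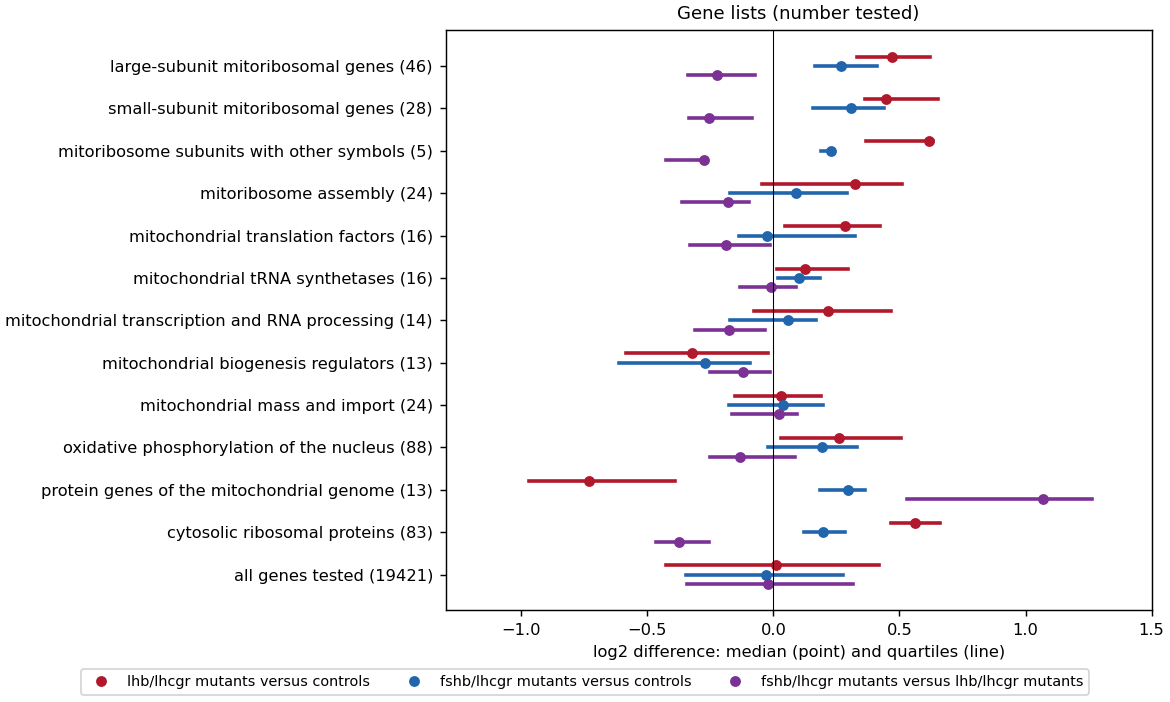
Median (point) and quartiles (line) of the log2 difference over the tested genes of each list, for each mutant against controls and for fshb/lhcgr mutants against lhb/lhcgr mutants. In lhb/lhcgr mutants against controls the medians are 0.47 and 0.45 for the large- and small-subunit genes, 0.56 for cytosolic ribosomal proteins, 0.03 for mitochondrial mass and import and -0.73 for the protein genes of mitochondrial DNA.

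Spread within groups was modest for this family. The coefficient of variation of CPM between libraries of a group had a median over the 74 genes of 12.4% in lhb/lhcgr mutants, 13.3% in fshb/lhcgr mutants and 17.3% in controls. The steadiest gene in controls was mrpl44, with 1.81%, and the least steady was mrpl58, with 76.1%. For mrps34 it was 14.7% in lhb/lhcgr mutants, 49.5% in fshb/lhcgr mutants and 55.3% in controls.

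The authors' deposited table of lhb/lhcgr mutants against controls listed a positive log2 fold change for 72 of the 74 genes, with a median of 0.45, and 41 of them had an unadjusted p under 0.05. In the authors' deposited table of fshb/lhcgr mutants against controls 69 were positive, with a median of 0.28, and 12 positive and 1 negative changes had an unadjusted p under 0.05. The signs in the authors' deposited tables matched those of the edgeR model for all 74 genes in both comparisons.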

How the data were processed

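The authors deposited raw counts per gene, FPKM per gene, and tables that compare each mutant group with controls by log2 fold change and unadjusted p-value. Per the submitters' processing notes, DESeq2 1.20.0 was used. Which aligner, counter, strand setting and genome build were used is not given in the sources used here. Positions are therefore left out, and reads shared with overlapping or near-identical genes cannot be told apart. Normalized-count signal columns and read count columns of the deposited comparison tables were not used.

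Members and lists were chosen with earlier results of these data known. Counts were tested with edgeR 4.0.16 (R 4.3.3): filterByExpr with a minimum count of 10 and a minimum total of 15, TMM factors, 1 robust quasi-likelihood model over all 11 libraries with a mean for each group, 2-sided, Benjamini-Hochberg adjustment over 19421 genes. The common biological coefficient of variation was 0.384. The model was first tested on simulated data. Alternatives used DESeq2 1.42.0, limma 3.58.1 (voom), other scaling and filters, a loess length correction (span 0.3), the replicate number as a block and single libraries left out. Level classes were 4 classes of mean expression. Deviations used log2(CPM + 0.5).

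Genes named were, in each comparison, called members, the 4 largest and 4 smallest differences among members averaging at least 5 CPM, and up to 5 members without overlap with the smallest p; in the series, the 6 highest and 3 lowest FPKM in controls; 19 companion genes fixed by name; and up to 4 called genes of each companion list. One companion gene named by this rule is not reported here. Other genes named were chosen after their values were seen. The planned search of promoter motifs was not run, since no promoter sequences were used here.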

Additional observations from a re-analysis of the deposited data

Results flagged for a closer look

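In groups of 4 libraries, a library was picked out when its gap to the nearest other library took up an unusually large part of the group's range. Of 64 groups examined among the named mitoribosomal genes, 5 held such a library, and chance alone picks out about 1 in 20 groups. The level of mrps16 was 35.7 CPM in lhb/lhcgr mutant 3, where the other lhb/lhcgr mutants had 44.0 to 44.2 CPM. That of mrpl33 was 25.4 CPM in lhb/lhcgr mutant 2, where the others had 10.9 to 12.3 CPM. In fshb/lhcgr mutant 4, mrps6 stood at 55.3 CPM and mrpl58 at 8.73 CPM, where the other fshb/lhcgr mutants had 43.1 to 44.6 CPM and 4.09 to 4.88 CPM. In fshb/lhcgr mutant 2, mrpl16 stood at 14.7 CPM, where the others had 26.5 to 27.0 CPM. The cause of these values was not tested.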

How the results depend on the processing

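For lhb/lhcgr mutants against controls, 9 mitoribosomal genes were called higher, and the alternatives gave 16 with upper quartile factors, 23 with library size only, 14 with a filter of 1 CPM in 3 libraries, 29 with DESeq2, 4 with only the 2 groups compared, 0 with the length correction and 0 without both lhb/lhcgr mutants 3 and 4. Leaving out single libraries gave 1 to 10. Over all genes tested, higher calls moved too. They were 562 in the main fit, 629 with upper quartile factors, 848 with library size only and 1198 with DESeq2. The filter of 1 CPM in 3 libraries gave 593 and the 2 groups alone gave 306. The length correction gave 285, and leaving out both lhb/lhcgr mutants 3 and 4 gave 18. The median mitoribosomal log2 difference was 0.57 with library size only and 0.31 with the length correction. For fshb/lhcgr mutants against controls, DESeq2 called 1 gene higher, the median was 0.18 with the length correction, and leaving out single libraries gave medians of 0.23 to 0.38 and distances from genes of like length of 0.15 to 0.27. For fshb/lhcgr mutants against lhb/lhcgr mutants, 2 genes were called lower with library size only and 2 with DESeq2, and the median was -0.36 with library size only and -0.13 with the length correction. Library size only also moved the median of all genes to 0.12 in lhb/lhcgr mutants against controls and to -0.15 between the mutants, and there it changed the split of all calls to 848 higher and 578 lower (562 and 864 with TMM) and to 200 higher and 318 lower (282 and 178 with TMM). The causes of these shifts were not tested. The mitoribosomal medians kept their direction under every alternative run. The median of all genes, close to 0 except with library size only, changed sign under some. In lhb/lhcgr mutants against controls it was 0.01 with TMM and -0.01 with the length correction. The fitted log2 difference of the near-absent taco1 ID in lhb/lhcgr mutants against controls, -6.41, turned without control 3, to 1.40 (adjusted p = 0.678, edgeR), and ran from -7.72 to 1.40 over fits that left out 1 library.

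Correlations of the deviations of same-numbered libraries were 0.17, -0.02 and 0.04 for lhb/lhcgr mutants and controls, and 0.15, 0.12 and -0.11 for fshb/lhcgr mutants and controls. Between fshb/lhcgr and lhb/lhcgr mutants they were 0.15, 0.02, 0.14 and -0.05. Low correlations cannot tell whether the replicate numbers paired the samples. With the replicate block, 4 mitoribosomal genes were called higher in lhb/lhcgr mutants against controls. Over all 19421 genes, 324 were called higher with the block and 562 without it.

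The 3 controls and 4 libraries of each mutant limit the precision, and few counts limit it for low genes such as mrpl58.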
